A study of Mus musculus with 5 samples.

Results

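The heart of a mouse model of immune checkpoint inhibitor myocarditis held a small class of endothelial barcodes that were rich in transcripts of the chemokines Cxcl9 and Cxcl10. They were chosen by their unique molecular identifier (UMI) counts alone. A member had mitochondrial genes at no more than 10% of its UMIs, at least 2 UMIs of Cdh5 plus Pecam1, and at least 5 UMIs of Cxcl9 plus Cxcl10. It also had fewer than 3 UMIs of the lymphatic genes Prox1, Mmrn1 and Ccl21a, at most 3 of the fibroblast genes Dcn and Col1a1, and at most 1 of the leukocyte genes Cd3e, C1qa and Cd79a. These limits were met by 665 of 14152 barcodes with 2 or more UMIs of Cdh5 plus Pecam1, called endothelial-marked here, and of 47319 barcodes in all. The other 13487 endothelial-marked barcodes were the reference, each compared within its own library. Because the limits on fibroblast, leukocyte and lymphatic genes bind only the members, a second reference held to the same limits is given beside the first wherever the choice matters. It lacked the 2571 reference barcodes that exceeded a limit. Numbers of these 12 genes describe the choice and carry no test.

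Cells were sequenced with the 5-prime chemistry of 10x Genomics from enzymatically digested, pooled hearts, after sorting of DRAQ5-positive, DAPI-negative cells, that is, live nucleated cells. The control group (Ctla4+/+Pdcd1-/-, 4 mice) gave 2 libraries, replicates 1 and 2, and the disease group (Ctla4+/-Pdcd1-/-, 10 mice) gave 3, replicates 3, 4 and 5, so all mice lacked Pdcd1 and the groups differed in carrying 1 or 2 intact copies of Ctla4. The alleles are not tied to a cell type in the labels, ages are not given, and which mice went into which library is not stated, so the library is the replicate and p-values measure the spread between libraries. Single sample labels name Pdcd2 or Pdcd3 and dyes other than DRAQ5 in 4 of the libraries, while the study's design text gives Pdcd1-/- and DRAQ5 throughout; the design text was followed. The files held 203796069 UMIs, with 24991704 to 55053988 per library. Members contributed 941581 and 343338 UMIs in control replicates 1 and 2, and 283562, 1203554 and 827577 UMIs in disease replicates 3, 4 and 5. Among all barcodes, 1208 barcode sequences occurred in more than 1 library, and 1 did so among the members.

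Cxcl9 and Cxcl10 are secreted ligands of the receptor Cxcr3, which guides activated T cells and natural killer cells into tissue. Interferon gamma is the classical inducer of Cxcl9, while Cxcl10 is also induced by type I interferons and by NF-kB. Endothelial cells that respond to interferon gamma are known to raise antigen presentation, adhesion molecules for leukocytes and the checkpoint ligand PD-L1, encoded by Cd274.

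The starts of 6 genes are shown because the response described below has been mapped to such sequences. Each is the stretch of 250 bases before the annotated start, from RefSeq on build GRCm38.p6, and capitals mark matches on either strand to the core of an interferon-stimulated response element (GAAA, any 2 bases, GAAA), a gamma-activated site (TTC, any 3 bases, GAA) or an NF-kB site (GGG, any 2 bases, TTTCC). Cxcl9 (chr5:92328080-92328329, minus strand) held no match in this window, which says only that these letters were absent from it. Cxcl10 (chr5:92348890-92349139, minus strand) held 1 response element core, which began 213 bases before the start. In Gbp2 (chr3:142620413-142620662, plus strand) a response element core began 59 bases before the start. Gbp5 (chr3:142496684-142496933, plus strand) held all 3 motifs, with gamma-activated cores 245 and 52 bases, a response element core 165 bases and an NF-kB match 77 bases before the start. Ifit1 (chr19:34640639-34640888, plus strand) held 2 response element cores, 104 and 85 bases before the start. Icam1 (chr9:21015690-21015939, plus strand) held 1 gamma-activated core, 42 bases before the start. No printed matches overlapped.
Cxcl9: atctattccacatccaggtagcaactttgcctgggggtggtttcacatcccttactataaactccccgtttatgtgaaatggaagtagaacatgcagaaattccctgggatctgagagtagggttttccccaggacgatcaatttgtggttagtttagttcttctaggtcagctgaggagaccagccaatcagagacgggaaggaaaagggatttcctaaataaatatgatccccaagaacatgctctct
Cxcl10: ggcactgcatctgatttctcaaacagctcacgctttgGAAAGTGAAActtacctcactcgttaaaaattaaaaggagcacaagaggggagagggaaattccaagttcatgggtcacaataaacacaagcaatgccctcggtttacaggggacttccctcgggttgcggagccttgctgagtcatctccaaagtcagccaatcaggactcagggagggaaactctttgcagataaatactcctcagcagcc
Gbp2: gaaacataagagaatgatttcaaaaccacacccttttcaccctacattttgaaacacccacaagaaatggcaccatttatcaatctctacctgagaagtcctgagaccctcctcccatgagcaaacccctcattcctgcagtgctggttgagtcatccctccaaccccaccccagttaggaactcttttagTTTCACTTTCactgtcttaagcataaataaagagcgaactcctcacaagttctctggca
Gbp5: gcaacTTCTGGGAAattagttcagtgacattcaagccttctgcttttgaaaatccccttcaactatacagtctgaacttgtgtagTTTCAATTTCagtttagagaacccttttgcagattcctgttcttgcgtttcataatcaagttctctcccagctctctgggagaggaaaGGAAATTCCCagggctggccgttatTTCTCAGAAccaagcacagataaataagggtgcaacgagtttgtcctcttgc
Ifit1: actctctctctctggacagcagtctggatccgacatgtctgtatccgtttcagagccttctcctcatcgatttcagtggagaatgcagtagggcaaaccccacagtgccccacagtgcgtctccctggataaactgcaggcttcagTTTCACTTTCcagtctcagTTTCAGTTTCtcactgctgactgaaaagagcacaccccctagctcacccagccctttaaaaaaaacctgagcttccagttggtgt
Icam1: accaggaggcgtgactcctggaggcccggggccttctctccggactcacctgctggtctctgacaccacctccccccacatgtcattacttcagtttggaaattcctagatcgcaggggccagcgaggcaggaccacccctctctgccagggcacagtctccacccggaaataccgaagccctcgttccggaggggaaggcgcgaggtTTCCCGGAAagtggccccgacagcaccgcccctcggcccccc

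Over 8036 genes that were tested against the second reference and had such a stretch, 3.25% held the response element core, 7.03% the gamma-activated core and 1.74% the NF-kB match. Among the 374 of them that were higher in members, the shares were 12.0, 12.6 and 5.88%. Of 27 genes of the interferon gamma list with a stretch, 11 held the response element core and 11 the gamma-activated core. Of 18 genes of the type I interferon list, 9 held the response element core. A match is a description of letters and does not show that a factor binds there.

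In control replicate 1 members were 4.24% of the endothelial-marked barcodes (Wilson 95% bounds 3.59 and 4.99), and in control replicate 2 they were 2.18% (1.69 and 2.81). The disease libraries gave 1.81% in replicate 3 (bounds 1.36 and 2.40), 10.98% in replicate 4 (9.78 and 12.3) and 4.93% in replicate 5 (4.25 and 5.71). Disease replicate 4 stood above the other libraries, and disease replicate 3 was below both controls, so the groups overlapped. With barcodes thinned to 2000 UMIs, which leaves out shallower ones, the shares were 2.02 and 0.651% in control and 0.698, 11.8 and 3.83% in disease. Replicate 3 was then above control replicate 2 and below control replicate 1, as it was at a threshold of 10 UMIs (0.5004% beside 0.42 and 1.65%). The thinned means were 1.33% in control and 5.43% in disease. The mean share was 3.21% ± 1.45 (SD, n = 2) in control and 5.91% ± 4.66 (SD, n = 3) in disease, a difference of 2.70 percentage points (two-sided exact permutation test over all 10 assignments of the 5 libraries, p = 0.6; the smallest p this design allows is 0.1). Without disease replicate 4 the difference was 0.16 points. The bounds cover counting error only. T cell-marked barcodes varied over the same libraries, at 9.33 and 1.70% of the kept barcodes in control and 2.56, 31.7 and 9.60% in disease, and their part in the share was not tested.

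**Figure D1:**
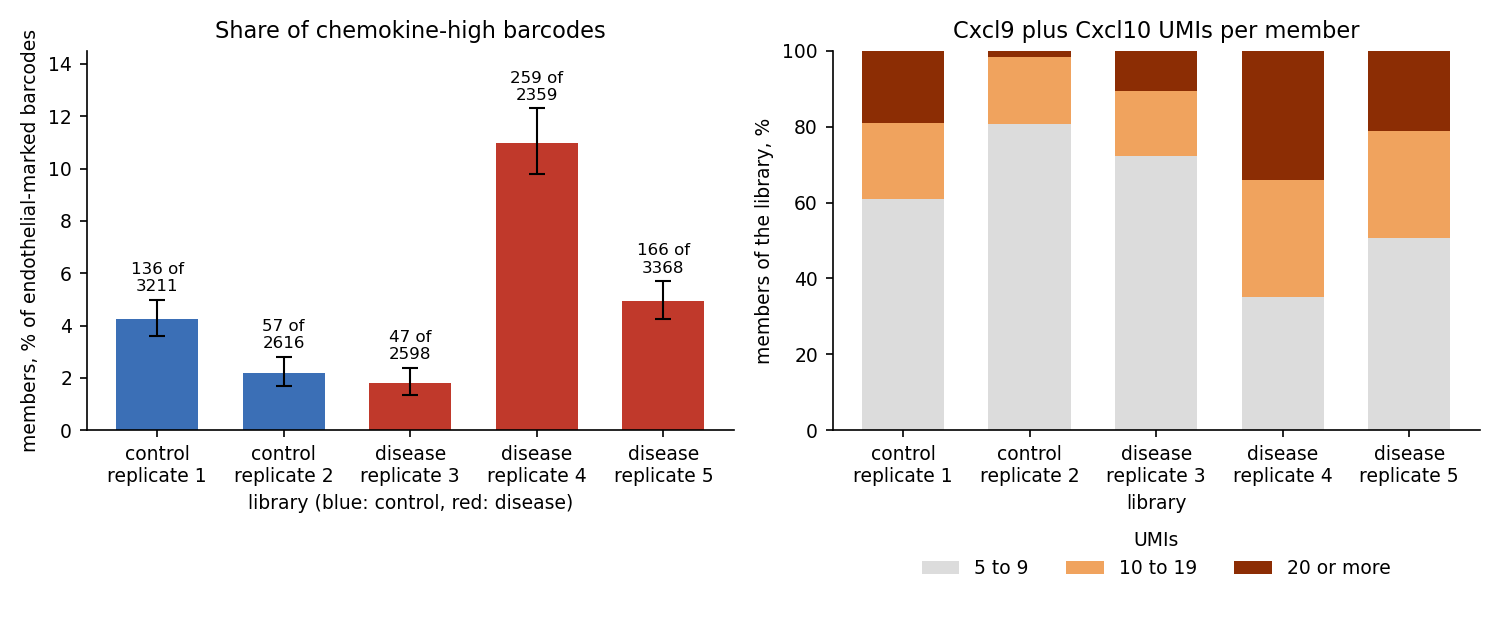
Left, members as a percentage of endothelial-marked barcodes in each library, with Wilson 95% bounds and the counts above each bar; right, the percentage of each library's members with 5 to 9, 10 to 19 or at least 20 UMIs of Cxcl9 plus Cxcl10. Disease replicate 4 has the highest share, 10.98%, and the largest part of members with 10 or more chemokine UMIs, 64.9%.

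Within the members Cxcl9 was the main chemokine of the pair. Summed over members it stood at 1742 and 1046 CPM (a gene's UMIs scaled to the same total in every sum) in control and at 1259, 4698 and 3298 CPM in disease, against 88.4 to 581 CPM in the reference. Cxcl10 stood at 472 and 198 CPM in control and at 578, 499 and 372 CPM in disease, against 11.1 to 309 CPM. Cxcl9 gave 68.5 to 90.4% of the pair's UMIs, and 604 of the 665 members had more Cxcl9 than Cxcl10 UMIs. Members with Cxcl10 UMIs alone were 0.602 to 6.38% of a library's members. The median member had 8 and 6 UMIs of the pair in control and 6, 13 and 9 in disease, and the highest had 216. At the edge of the rule 129 endothelial-marked barcodes had 5 UMIs and 170 had 4. B cell-marked barcodes, which should lack these transcripts, had a UMI of the pair in 3.57, 0, 0, 18.2 and 2.56% of barcodes from control replicate 1 to disease replicate 5, but 5 UMIs in 0.493% of them in disease replicate 4 and in none elsewhere, where a count of 0 allows shares of 2.50 to 10.7%. Their median depth was 2281 to 2815 UMIs, against 2768 to 3571 in endothelial-marked barcodes.

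The label was checked on endothelial markers that the rule did not use. Summed over the 12 of them, the level was 6177 to 6463 CPM in members and 5293 to 6916 CPM in the reference. Kdr, the main VEGF receptor, was at 892 to 1075 CPM in members, 753 to 1082 CPM in the reference and 950.2 to 1234 CPM in the second reference. Members were deeper, with medians of 3638.5 to 5541.0 UMIs against 2643.5 to 3507.0 in the reference, and had lower mitochondrial shares, at medians of 2.58 to 4.96% against 3.15 to 5.73%. Some members also held dendritic cell transcripts: a UMI of Flt3, Xcr1, Clec9a or Cd209a occurred in 17 of them, in control replicate 1 and disease replicates 4 and 5. No doublet caller was run, so calls were repeated with the 502 members that had no UMI of Ptprc, Tyrobp, Fcer1g or those 4 genes, a check added after seeing the data. Cardiomyocyte markers were higher in members for 8 of 10 genes tested, at a median log2 fold change of 0.65 and 0.36 against the second reference. The summed level over the 11 listed genes was 1031 to 2088 CPM in members and 632 to 1213 CPM in the reference, and its part in the results was not tested. Markers of lineages that the limits exclude were low in members: summed fibroblast markers stood at 217 to 408 CPM against 2441 to 5132 CPM in the reference, macrophage markers at 90.3 to 925 against 623 to 5616 CPM and T cell markers at 5.83 to 362 against 57.7 to 3466 CPM. Dendritic cell markers were at 181, 46.6, 28.2, 106 and 189 CPM in members from control replicate 1 to disease replicate 5 and at 50.0 to 76.1 CPM in the reference, above it in the 3 libraries named. Red cell and platelet markers, summed over 7 genes, were at 172 and 84.5 CPM in control members and at 81.1, 10519.7 and 3747 CPM in disease members, against 1457 and 2709.7 CPM and 3702, 2665 and 1499 CPM in the reference. They were above the reference in disease replicates 4 and 5 alone, where members also had the highest levels of Gbp2, Ubd, Ido1 and Cd274. Between the genotypes 0 of the 5 tested passed with edgeR, at a median of 3.97, and the part of these transcripts in the results was not tested.

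The first question was which genes differed between members and other endothelial-marked barcodes of the same heart library. Genes of the interferon gamma response rose almost as a block, led by the ubiquitin-like modifier Ubd, the serpin Serpina3f, the tryptophan-degrading enzyme Ido1, guanylate-binding proteins and the PD-L1 gene Cd274. Class I antigen presentation rose with smaller folds, and 7 of 12 arterial, 6 of 9 venous and 5 of 7 endocardial markers were lower. The venous and endocardial lists share Vwf and Plvap, and fewer endocardial markers were lower against the second reference. Of 11634 genes tested with edgeR's quasi-likelihood test with a library term, 549 (4.72%) were higher and 953 (8.19%) lower in members at an adjusted p under 0.05. The limits on other lineages bind the members and not this reference, and the lower genes include all 8 fibroblast, all 11 macrophage and 10 of 11 T cell markers tested. Against the second reference 479 of 10235 (4.68%) were higher and 331 (3.23%) lower, and with the 502 members free of leukocyte and dendritic transcripts 321 and 198 of 9436 were. Without the library term 63 genes were higher and 365 lower.

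Of 40 interferon gamma response genes tested, 36 were higher in members and 1 lower, with a median log2 fold change of 1.23, where the median over all genes tested was -0.02. Against the second reference 38 of 38 were higher, at a median of 1.30, and 36 of 39 were higher without disease replicate 4. Ubd stood at 97.7 and 8.74 CPM in control members and at 21.2, 440 and 520 CPM in disease members, against 0.977 to 38.0 CPM in the reference. Members were above the reference in each of the 5 libraries, and disease replicates 4 and 5 were highest. The member values of control replicate 2 and disease replicate 3 rest on 3 and 6 Ubd UMIs, 4 of the 6 from 1 member. The change of Ubd was 4.18 on the log2 scale (SE 0.19, adjusted p = 1.5e-12 by edgeR). Serpina3f, a serine protease inhibitor, was at 151 and 11.7 CPM in control members and at 10.6, 563 and 363 CPM in disease members, against 1.17 to 81.1 CPM in the reference. It rose by 3.58 (SE 0.17, adjusted p = 3.1e-12 by edgeR), and its member sums in control replicate 2 and disease replicate 3 were 4 and 3 UMIs. Ido1, which depletes tryptophan and restrains T cells, was at 52.0 and 11.7 CPM in control members and at 49.4, 314 and 230 CPM in disease members, against 7.91 to 25.9 CPM in the reference. It rose by 3.28 on the log2 scale (SE 0.25, adjusted p = 2.8e-09 by edgeR). UMIs of Ido1 came from 112 members in disease replicate 4 and 78 in disease replicate 5, but from 3 members each in control replicate 2 and disease replicate 3. Those 2 libraries held 4 and 14 Ido1 UMIs in members, and 1 member held 12 of the 14.

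Guanylate-binding proteins are GTPases that interferon induces against intracellular microbes. Gbp2 was at 670 and 277 CPM in control members and at 328, 2866 and 1677 CPM in disease members, against 162 to 639 CPM in the reference. The member value lay above the reference of its own library every time, by 1.64 on the log2 scale (SE 0.19, adjusted p = 1.5e-06 by edgeR), and 252 of 259 members of disease replicate 4 had a Gbp2 UMI. Gbp10, Gbp6 and Gbp5 rose by 2.96, 1.83 and 1.73. Among transcription factors of the response, Irf8 rose by 1.23, Batf2 by 2.24 and Irf1 by 0.59. Socs1, the feedback inhibitor of Jak kinases, rose by 1.19, Upp1, a uridine phosphorylase, by 1.75, and Casp4, an inflammatory caspase, by 0.88. The histidine decarboxylase Hdc, Apol10b and Gm4951, which are in none of the lists, rose by 1.58 each. The 1 gene of the list that was lower, Gbp2b, had 1 UMI in disease replicate 3 and 7 in disease replicate 4 among members. It was too low to be tested against the second reference. Cd74, Casp1 and Acod1 did not pass the test.

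**Figure D2:**
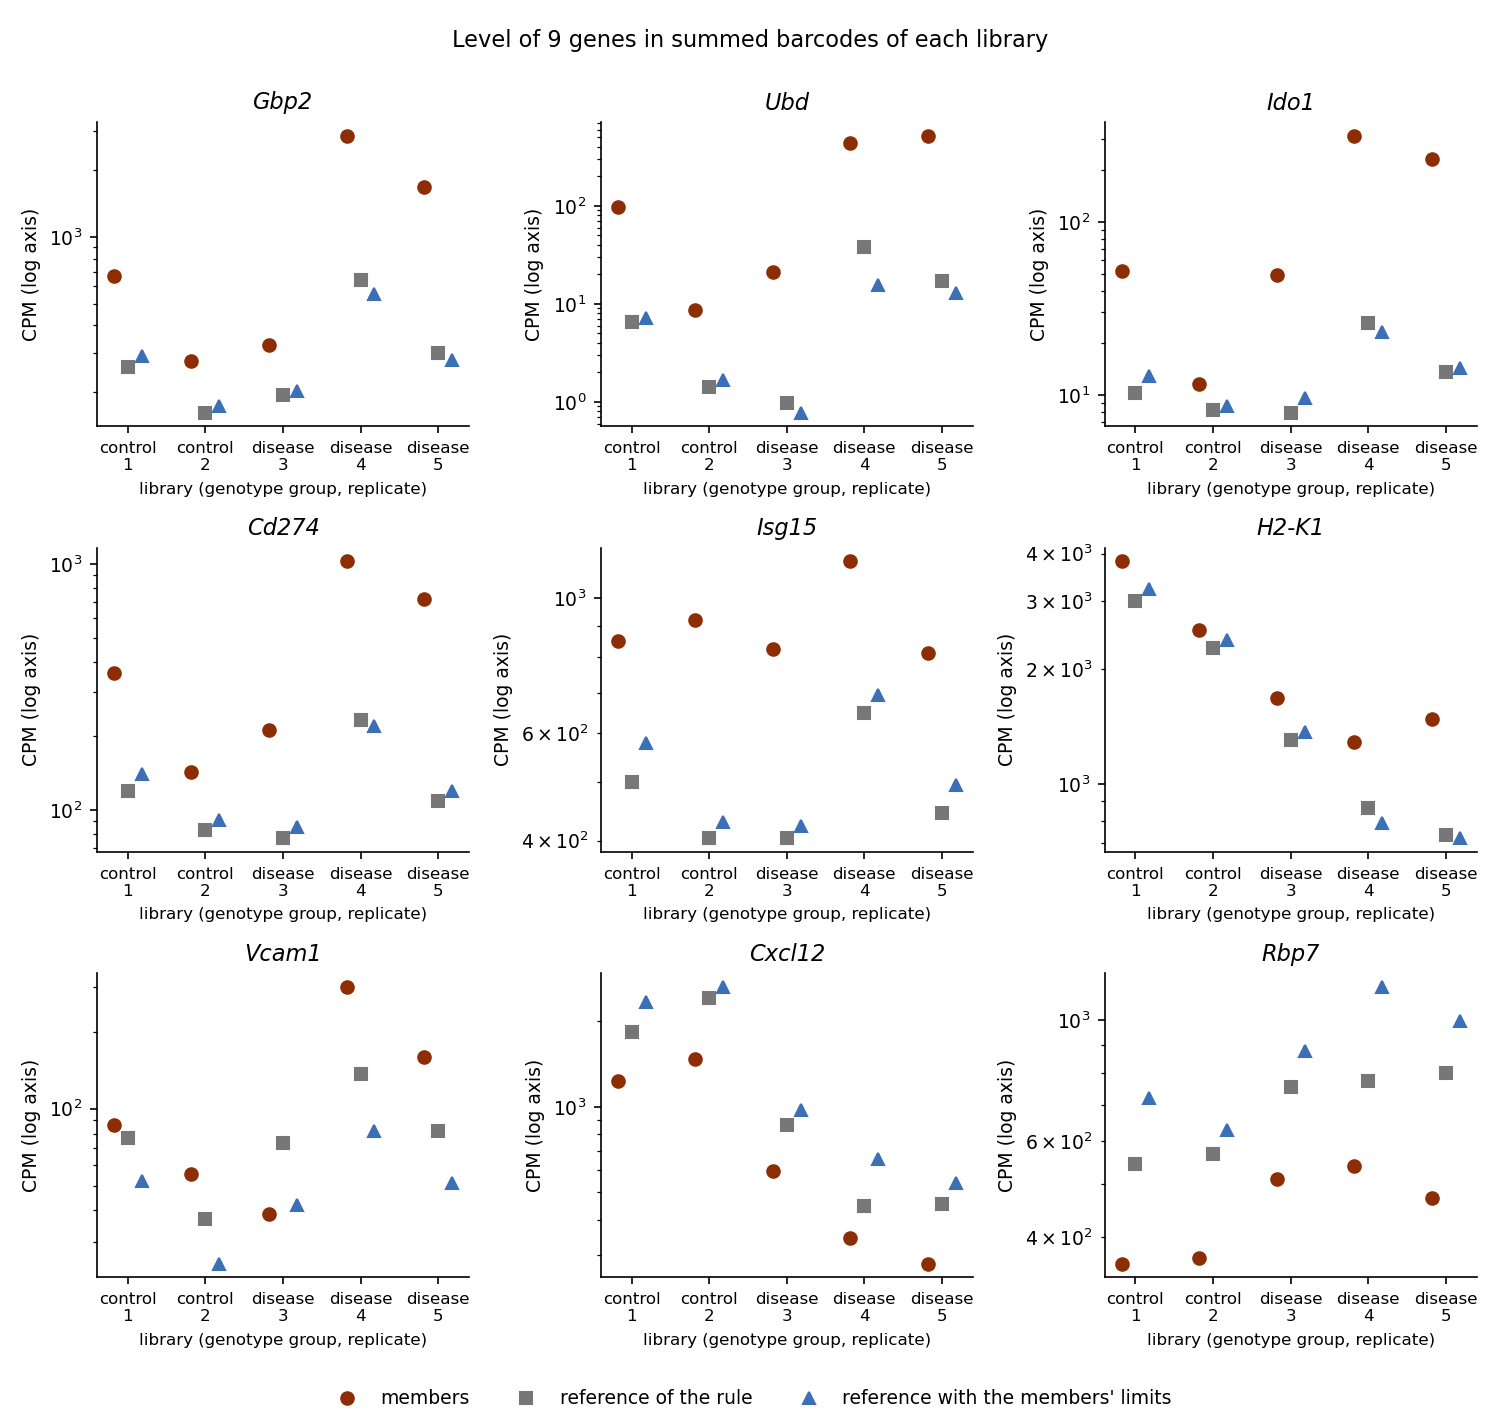
CPM (log axes) of 9 genes summed over members, over the reference of the rule and over the reference with the members' limits, in each of the 5 libraries. For Gbp2, Ubd, Ido1, Cd274, Isg15 and H2-K1 the member point lies above both references in every library, and for Cxcl12 and Rbp7 below both.

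Type I interferon response genes rose with them: 19 of 21 tested were higher, at a median of 1.02, and 17 of 21 against the second reference. Isg15, a ubiquitin-like modifier, was at 850 and 920 CPM in control members and at 825, 1151 and 814 CPM in disease members, against 404 to 648 CPM in the reference. Members and reference did not overlap, and the log2 fold change was 0.99 (SE 0.08, adjusted p = 5.4e-09 by edgeR). The RNA sensors Ifit1 and Ifit2 rose by 1.18 and 1.56, the transcription factor Irf7 by 1.15 and the nucleic acid sensor Zbp1 by 1.90. Ifit1 ranged from 139 to 304 CPM over the members of the 5 libraries, a narrower spread than that of Ubd or Ido1 above. Of 15 receptor and Jak-Stat genes tested, 3 were higher, namely Stat2 (0.62), the cytokine feedback gene Cish (0.67) and the deconjugating enzyme Usp18 (1.02). Ifngr1, the ligand-binding chain of the interferon gamma receptor, was at 201 to 317 CPM in members and at 201 to 265 CPM in the reference (log2 fold change 0.08, SE 0.09).

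For class I antigen presentation 20 of 23 genes were higher, at a median of 0.72, and 21 of 23 against the second reference. H2-K1, a classical class I heavy chain, was at 3820.2 and 2528 CPM in control members and at 1682, 1290.3 and 1478 CPM in disease members. The reference held 3003 and 2270.2 CPM in control and 1302, 864 and 736 CPM in disease, so the member excess was present in each library although both levels were lower in disease. The change was 0.55 (SE 0.10, adjusted p = 0.00030 by edgeR). B2m, the light chain, rose by 0.63, the peptide transporter Tap1 by 1.04, the immunoproteasome subunit Psmb9 by 0.79 and Nlrc5, the transactivator of class I genes, by 1.17. H2-D1 rose by 0.36 (edgeR adjusted p = 0.0096), and by 0.25 without disease replicate 5 (adjusted p = 0.066). Several of these genes, among them Tap1, Psmb9 and Nlrc5, are also in the interferon gamma list. Sequence shared between class I heavy chain genes can move reads among them.

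Class II genes depended on the reference. Against the reference of the rule 5 of 14 were higher and 1 lower, and against the reference with the members' limits 11 of 12 were higher, at a median of 1.96. With the 502 members free of leukocyte and dendritic transcripts 7 of 9 were higher, at a median of 1.40. H2-Aa, an alpha chain, was at 1336 and 20.4 CPM in control members and at 102, 2457 and 1617 CPM in disease members. Its log2 fold change was -0.06 (SE 0.30) against the reference of the rule and 1.85 (edgeR adjusted p = 0.0026) against the second reference, which held 58.9 to 475 CPM. Control replicate 2 and disease replicate 3 went against this rise, with 20.4 and 102 CPM in members beside 58.9 and 136 CPM in the second reference. H2-Aa UMIs were found in 219 of 259 members of disease replicate 4 and 117 of 166 of disease replicate 5, but in 5 of 57 of control replicate 2 and 7 of 47 of disease replicate 3. Single members held up to 612 of these UMIs, in disease replicate 4, and 1 member held 23 of the 29 in disease replicate 3. Cd74, the invariant chain, and H2-Ab1 rose by 1.81 and 2.05 against the second reference, and by 1.51 and 1.54 without leukocyte and dendritic transcripts. Against the reference of the rule they were at -0.24 and 0.12 and did not pass. Ciita, the class II transactivator, had no UMI in the members of control replicate 2 and disease replicate 3, and 14.9, 46.5 and 44.7 CPM in the other three libraries. Its value of 1.45 fell to 0.78 (edgeR adjusted p = 0.14) without disease replicate 5, and that of the peptide-loading chaperone H2-DMa went from 1.06 to 0.65 (adjusted p = 0.087).

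**Figure D3:**
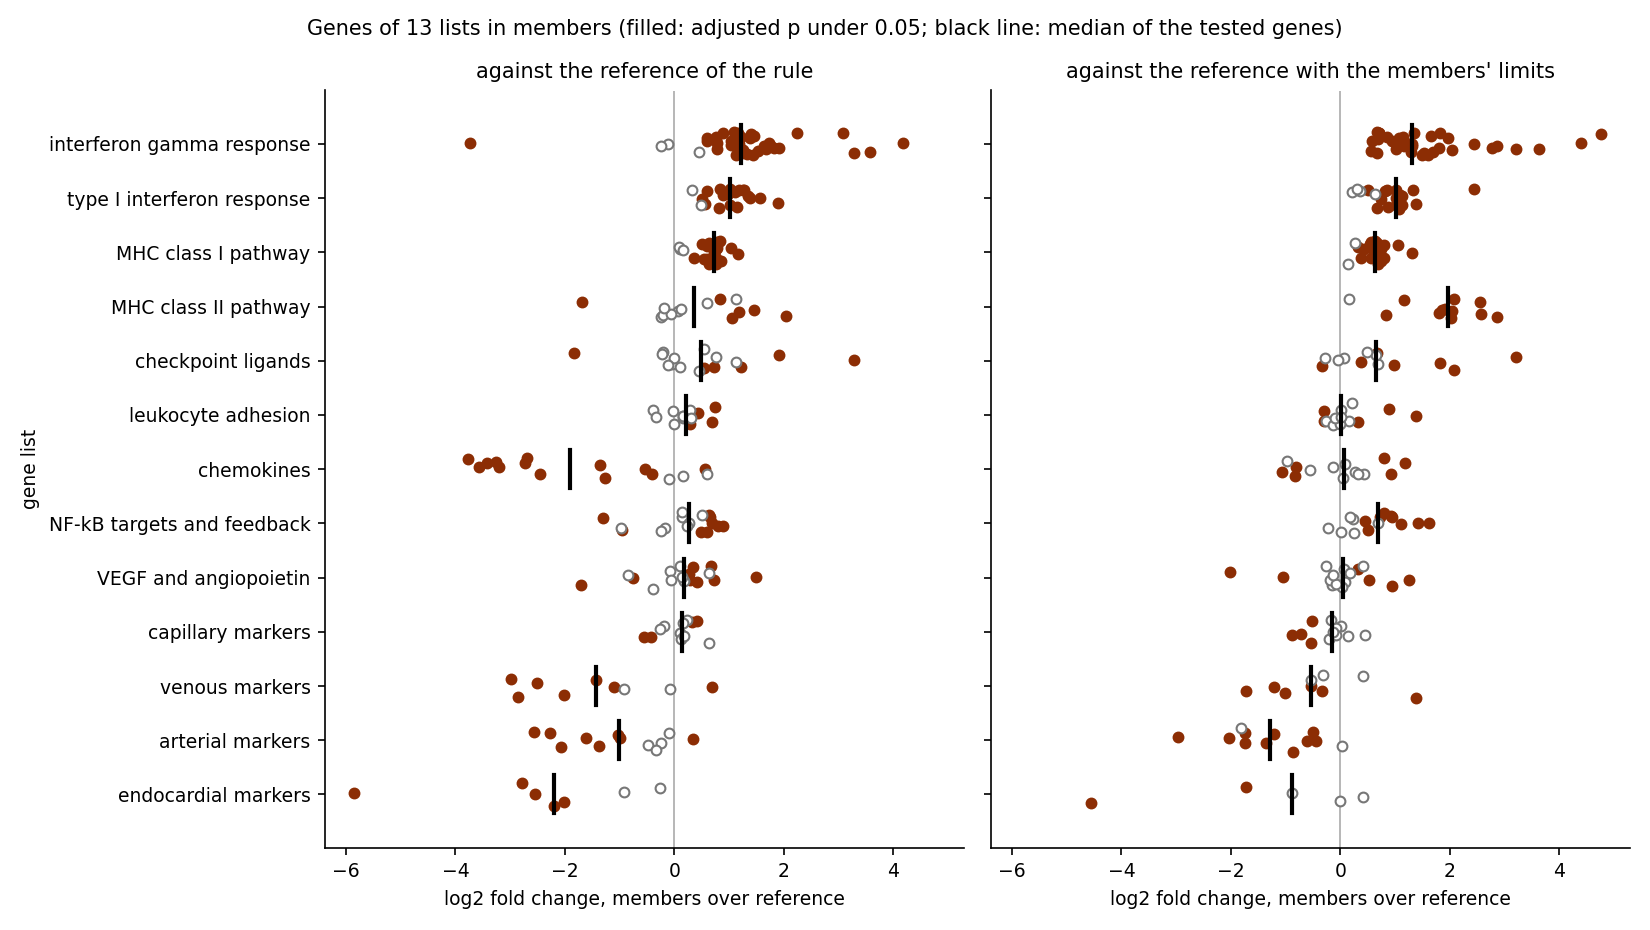
Log2 fold changes of the genes of 13 lists in members, against the reference of the rule (left) and against the reference with the members' limits (right); filled points had an edgeR adjusted p under 0.05 and black lines are the medians of the tested genes. The interferon and class I lists sit to the right of 0 in both panels, the class II list has a median of 0.36 in the left panel and 1.96 in the right, and the arterial list sits to the left of 0 in both.

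Among ligands and enzymes that act on T cell checkpoints or death receptors, 5 of 16 tested were higher and 1 lower. Cd274 was at 361 and 143 CPM in control members and at 212, 1024 and 720 CPM in disease members, against 76.7 to 232 CPM in the reference. The member value exceeded its own reference in each library, by a log2 fold change of 1.91 (SE 0.17, adjusted p = 5.7e-08 by edgeR). Tnfsf10, the death ligand TRAIL, rose by 1.22, Lgals9, which encodes galectin-9, by 0.54, and Pvr, a ligand of T cell inhibitory and activating receptors, by 0.72. For Pvr the adjusted p was 0.097 in the members without leukocyte and dendritic transcripts. Among cytokine genes Il18bp, the soluble inhibitor of interleukin 18, rose by 1.25 and Csf1, the macrophage growth factor, by 0.55. Cd40, the co-stimulatory receptor, rose by 0.84, and by 0.55 (edgeR adjusted p = 0.067) without control replicate 1. The necroptosis effector Mlkl rose by 1.02 and the cell cycle inhibitor Cdkn1a by 0.57.

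Of 14 leukocyte adhesion genes tested, 5 were higher. Icam1, the ligand of leukocyte beta-2 integrins, was at 428 and 405 CPM in control members and at 391, 528 and 544 CPM in disease members, against 212 to 429 CPM in the reference, a change of 0.75 (SE 0.09, adjusted p = 3.4e-06 by edgeR). Vcam1, the ligand of the integrin VLA-4, was at 86.0 and 55.3 CPM in control members and at 38.8, 300 and 160 CPM in disease members. In disease replicate 3 it was below the reference of 73.2 CPM, and in the other libraries above. Its log2 fold change was 0.70 (edgeR adjusted p = 0.0058), 0.57 without disease replicate 5 (adjusted p = 0.068) and 1.39 against the second reference. The selectins Sele and Selp, which start leukocyte rolling, were at 0 to 5.31 CPM in members, and Ackr1, the atypical chemokine receptor of venules, had 0 UMIs in members of all libraries.

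Other chemokines moved less uniformly. Of 16 chemokines and chemokine receptors of the atypical family tested, 1 was higher and 12 lower against the reference of the rule, and 3 higher and 3 lower of 14 against the second reference. Cxcl12, the homeostatic ligand of Cxcr4, was at 1237 and 1471 CPM in control members and at 592, 344 and 280 CPM in disease members. The reference was higher in each library, at 1834 and 2412 CPM in control and 864, 446 and 456 CPM in disease, and the log2 fold change was -0.53 (SE 0.08, adjusted p = 6.0e-05 by edgeR), or -0.81 against the second reference. The neutrophil chemokine Cxcl2 was lower against the reference of the rule (-1.27) and higher against the second (1.18). In control replicate 1, 151 of 345 Cxcl2 UMIs came from 1 member. Without control replicate 1 the first of these values was -1.95, and without disease replicate 4 it was -0.72. Cxcl1 did not differ detectably from the reference of the rule (-0.09) and was higher against the second (0.92).

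Summed over 12 genes, capillary markers stood at 11154 to 12022 CPM in members and at 9656 to 11789 CPM in the reference, and arterial markers at 472 to 783 CPM and 846 to 1096 CPM. Of the 12 capillary genes, 2 were higher and 2 lower, at a median of 0.14, and against the second reference 4 were lower. Gpihbp1, which anchors lipoprotein lipase in capillaries, was at 1832 to 2591 CPM in members and at 1556 to 2122 CPM in the reference, at a log2 fold change of 0.32 that was 0.23 without control replicate 1 (adjusted p = 0.096 by edgeR). Rbp7, a retinol-binding protein, was at 358 and 367 CPM in control members and at 511, 540 and 472 CPM in disease members, against 545 to 801 CPM in the reference. It was lower in members in each library, by -0.56 on the log2 scale (SE 0.08, adjusted p = 2.8e-05 by edgeR), and Btnl9 by -0.42.

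Arterial markers were lower in members for 7 of 12 genes and higher for 1, at a median of -1.01, and lower for 10 of 12 against the second reference, at -1.28. The arterial connexin Gja5 was at 0 to 3.63 CPM in members and at 8.92 to 13.2 CPM in the reference, and connexin Gja4 at 0 to 19.9 and at 42.3 to 53.1 CPM. Fbln5, an elastic fibre protein, was at 7.05 to 26.2 CPM in members against 63.7 to 91.7 CPM, without overlap (log2 fold change -2.28, SE 0.17; adjusted p = 2.8e-09 by edgeR). Stmn2 was lower by -1.38, the Notch target Hey1 by -1.03 and the Notch ligand Jag1 by -0.99. Venous markers were lower for 6 of 9 genes and higher for 1, Vcam1, and lower for 5 of 9 against the second reference. Of the endocardial genes, 5 of 7 were lower, and 2 of 5 against the second reference. Vwf and Plvap are in both the venous and the endocardial list. Nr2f2, the transcription factor of venous identity, changed by -1.11. Vwf, a clotting factor carrier of larger vessels, changed by -2.02, and by -3.20 without disease replicate 4, whose members held 35.7 CPM against 3.53 to 8.50 CPM in the other libraries. The endocardial gene Cytl1 had 2 UMIs in all members and 16.2 to 62.1 CPM in the reference. Smooth muscle genes were lower for 3 of 6 and pericyte genes for 2 of 9.

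Genes of NF-kB signalling, the pathway that tumour necrosis factor activates, rose in part. Of 17 tested 7 were higher and 2 lower, and against the second reference 9 of 15 were higher. Birc3, an inhibitor of cell death, was at 49.9 and 52.4 CPM in control members and at 74.1, 67.3 and 77.3 CPM in disease members, against 32.3 to 56.1 CPM in the reference. It was above its own reference in each library, a rise of 0.65 on the log2 scale (SE 0.13, adjusted p = 0.0014 by edgeR). The NF-kB subunit Nfkb2 rose by 0.60 and the receptor adaptor Traf1 by 0.90, the latter by 0.55 without control replicate 1 (adjusted p = 0.30 by edgeR). Against reference barcodes matched to the members' UMI totals these 3 genes did not pass, at 0.49, 0.27 and 0.59. Of 16 genes of cell death 4 were higher, among them Ripk3, the kinase that activates Mlkl, at 0.63, which did not pass without control replicate 1, control replicate 2, disease replicate 3 or disease replicate 4. Csf2rb, the shared receptor chain for granulocyte-macrophage colony-stimulating factor, rose by 1.72. Of 16 immediate early and stress genes 5 were higher, among them the chaperones Hspa1a (0.56) and Hsp90aa1 (0.42), while against the depth-matched reference 0 were higher and 1 lower, with both chaperones at 0.15.

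Genes of vessel growth split. Of 17 in the VEGF and angiopoietin list 7 were higher and 2 lower, and against the second reference 4 and 2. Apln, a peptide of sprouting endothelium, was at 49.9 and 40.8 CPM in control members and at 10.6, 15.0 and 21.8 CPM in disease members, above the 5.86 to 18.7 CPM of its own reference in each library, a change of 1.49 (SE 0.22, adjusted p = 3.2e-05 by edgeR). The neuropilin Nrp2 rose by 0.72 and the vasodilator peptide Adm by 0.67, which was 0.38 without control replicate 2. The tight junction gene Cldn5 rose by 0.69. Esm1, a marker of tip cells, changed by -1.70, and Tsc22d3, a glucocorticoid target, by -0.65. The anticoagulant receptor Thbd changed by -0.35 (edgeR adjusted p = 0.016), and without control replicate 1 or disease replicate 5 it did not pass (adjusted p = 0.069 and 0.10).

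Gbp2 and Vcam1 were higher in members with more chemokine UMIs in the 3 libraries with enough members to divide, while other interferon genes did not follow in every library. In disease replicate 4, members with 5 to 9, 10 to 19 and at least 20 chemokine UMIs numbered 91, 80 and 88. Gbp2 was at 1768, 2969 and 3509 CPM in these bins, Ubd at 161, 230 and 751 CPM, and Vcam1 at 93.5, 209 and 490 CPM. Ifit1 was at 400, 327 and 228 CPM and Isg15 at 1259, 1211 and 1043 CPM, lowest in the highest bin, and H2-K1 was at 1204, 1362 and 1301 CPM. In disease replicate 5 the bins held 84, 47 and 35 members, with Gbp2 at 839, 1536 and 3593 CPM and Vcam1 at 64.7, 118 and 411 CPM. Ido1 there was at 129, 126 and 576 CPM and Ifit1 at 135, 110.3 and 187 CPM. In control replicate 1 they held 83, 27 and 26 members, with Gbp2 at 402, 745 and 1298 CPM and Vcam1 at 40.6, 89.2 and 201 CPM. Ubd there was at 44.3, 26.2 and 302 CPM, and Ifit1 at 68.2, 320.1 and 388 CPM. Cxcl12 was lowest in the highest bin of both disease libraries, at 406, 457 and 234 CPM in replicate 4 and 342, 272 and 165 CPM in replicate 5, and was at 1177 and 1312 CPM in the lowest and highest bin of control replicate 1. The bins were cut on the genes of the rule and are given as a description. Depth differed between bins, with medians of 3099, 3443 and 4806.5 UMIs in disease replicate 4, and its part was not tested. Control replicate 2 and disease replicate 3 had 10 or fewer members in the upper bins.

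**Figure D4:**
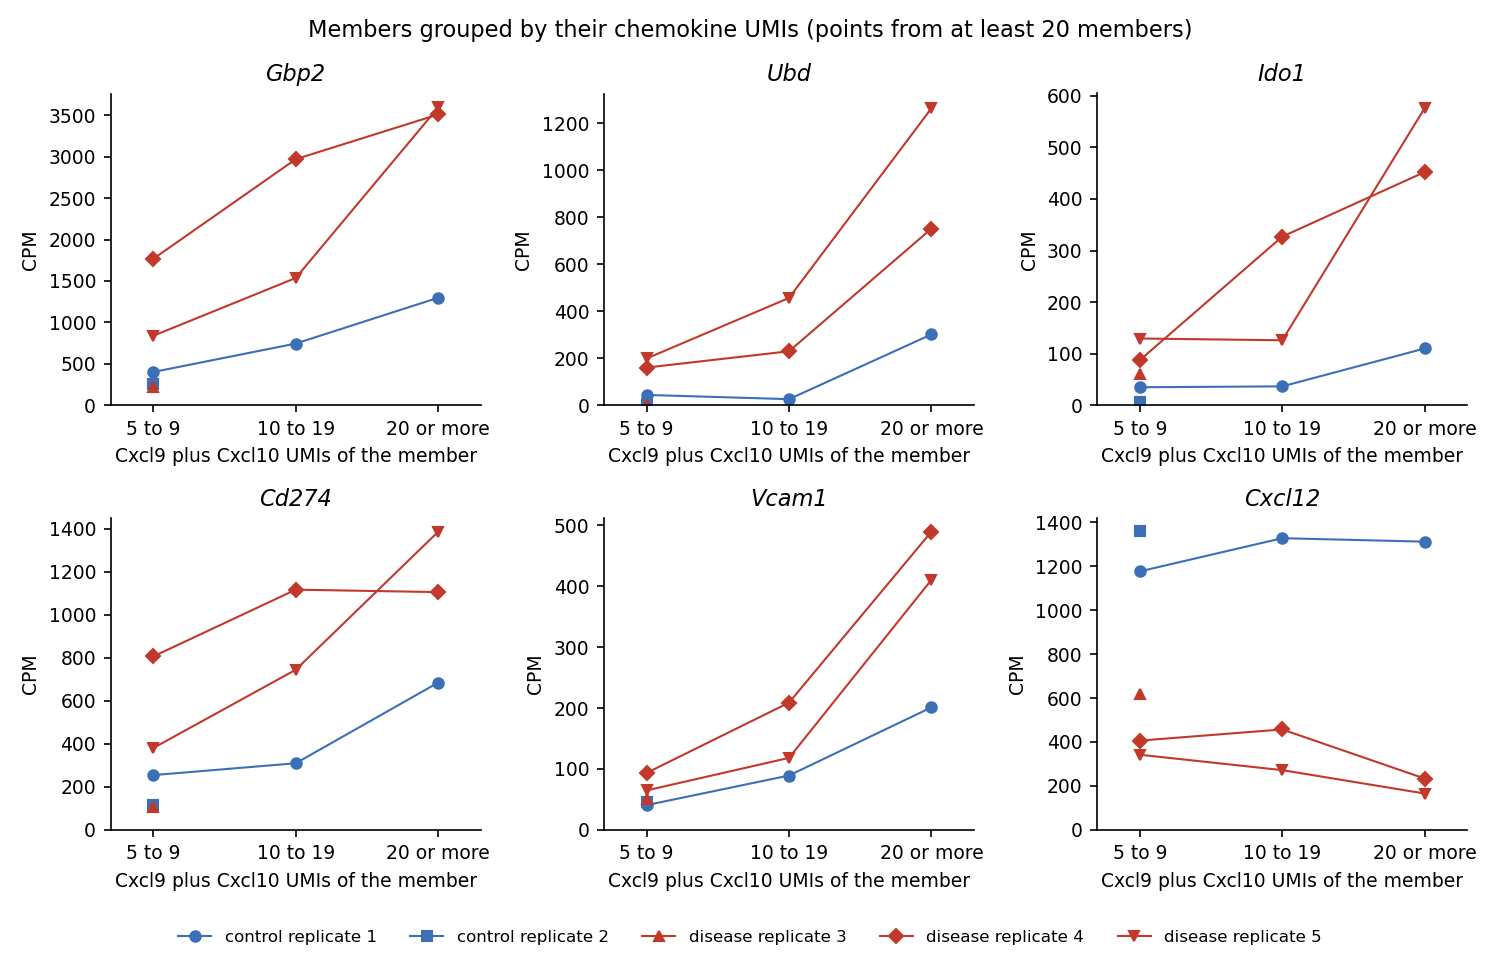
CPM of 6 genes in members grouped by their UMIs of Cxcl9 plus Cxcl10, 1 line per library (blue for control, red for disease), for groups of at least 20 members. Gbp2 and Vcam1 climb across the 3 groups in each of the 3 libraries with lines, to 3593 CPM of Gbp2 in disease replicate 5, while Cxcl12 is lower in the highest group of both disease libraries.

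The second question was whether members differed between the genotypes. Of 8072 genes tested with edgeR's quasi-likelihood test, 7 (0.0867%) were higher and 451 (5.59%) lower in disease members. The 451 lower genes were not particular to members: all 451 had a lower mean in the disease reference as well, and 450 in fibroblast-marked barcodes with fewer than 5 chemokine UMIs, with medians of -1.97 in members, -1.81 in the reference and -1.82 in the fibroblast-marked barcodes. The labels give no batch, so a difference in how the libraries were made and the genotype cannot be told apart for them. Examples are the splicing gene Snrpf, at 150 and 151 CPM in control members and 1.66 to 7.25 CPM in disease members, and the respiratory chain gene Cox5a, at 384 and 317 CPM against 15.0 to 28.2 CPM. H2-D1 (-1.89), Cxcl12 (-1.76), Nfkbia, an inhibitor of NF-kB (-1.85), and the stress gene Atf3 (-2.66) were among them.

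Without control replicate 1 or disease replicate 5, H2-D1, Cxcl12 and Nfkbia did not pass, nor did Cxcl12 and Nfkbia without control replicate 2 (edgeR).

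Genes higher in disease members included the cell cycle kinase Cdk6 (2.12), the circadian factor Dbp (1.73), Ctla2b (1.58), the cytoskeletal adaptor Csrp1 (1.11) and Il2rg, the common chain of interleukin receptors (1.00). Cdk6 was at 13.8 and 8.74 CPM in control members and at 38.8, 67.3 and 48.3 CPM in disease members (SE 0.40, adjusted p = 0.020 by edgeR). With either control left out the control arm is 1 library, and the spread comes from the disease libraries alone. None of these 5 passed without control replicate 1, control replicate 2 or disease replicate 5, and Ctla2b and Il2rg did not pass without disease replicate 3 or 4 either. All 7 higher genes also had a higher mean in the disease reference and in fibroblast-marked barcodes with fewer than 5 chemokine UMIs. The share of all genes that did so was not computed. The medians of the 7 were 1.45 in members, 0.60 in the reference and 0.47 in the fibroblast-marked barcodes. The count of higher genes was 0 without control replicate 1 or disease replicate 5, 1 without control replicate 2 and 35 without disease replicate 3. The count of lower genes was 142, 181 and 91 without control replicate 1, control replicate 2 and disease replicate 5.

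Of 38 interferon gamma response genes tested between the genotypes, 0 passed with edgeR and 0 with DESeq2. The edgeR median log2 difference was 1.05, beside 0.06 over all genes. With edgeR 7 of the 38 had an unadjusted p under 0.05, beside 1428 of all 8072 genes. The number that passed depended on the filter and the libraries. Without the filter on low counts 25 of 40 were higher and 1 lower by edgeR, at a median of 1.09. Over all 15391 genes of that fit 124 were higher and 819 lower. Among members without leukocyte or fibroblast UMIs the median of the list was 2.18, beside 0.04 over all genes. That fit held the 3 libraries with at least 20 such members (control replicate 2 and disease replicates 4 and 5). The control arm of that fit is 1 library, assumed to vary like the disease libraries, and 0 of 32 passed in the 5 libraries with at least 10. Without disease replicate 3, 12 of 38 were higher, beside 35 of all 8103 genes. Without disease replicate 4 the median was 0.54 and 0 of 37 passed. The levels of these genes in members overlapped between the groups: for Gbp2 and Cd274 disease replicate 3 lay between the controls, and disease replicates 4 and 5 above them. Whether the member excess itself differed between the genotypes was tested by the interaction term. Of 11634 genes 5 (0.043%) had a larger and 9 (0.0774%) a smaller excess in disease with edgeR. Against the second reference the counts were 0 and 1, and with DESeq2 0 and 1. An unadjusted p under 0.05 was found for 655 genes with edgeR, 496 against the second reference and 184 with DESeq2. Without control replicate 1, control replicate 2, disease replicate 3, 4 or 5 in turn, 9, 0, 27, 16 and 14 genes had a larger and 4, 23, 17, 29 and 37 a smaller excess. Ido1 was 1 of the 5, at 1.69 (SE 0.34, adjusted p = 0.033 by edgeR), 1.31 without control replicate 2 (adjusted p = 0.17) and 3.26 without control replicate 1, and it had an adjusted p of 0.21 against the second reference. Of 40 interferon gamma response genes Ido1 alone passed with edgeR and 0 with DESeq2, 22 and 4 had an unadjusted p under 0.05, and the edgeR median was 0.52, beside 0.07 over all genes. Without disease replicate 4, 7 of 39 passed.

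The last comparison set the members beside chemokine-high barcodes of another lineage. Barcodes with at least 4 UMIs of Dcn plus Col1a1, none of Cdh5 or Pecam1 and at most 1 of the leukocyte genes are called fibroblast-marked. Those with at least 5 UMIs of Cxcl9 plus Cxcl10 numbered 490, against 8669 with fewer, and 3 libraries had at least 20 of them (control replicate 1 and disease replicates 4 and 5). Both chemokines were used to choose these barcodes and the members, so their levels are a description only. Cxcl10 was at 1427, 2367 and 1605 CPM and Cxcl9 at 197, 452 and 1179.6 CPM in the chemokine-high fibroblast-marked barcodes of these libraries, while in members Cxcl9 was above Cxcl10 in each. Genes whose chemokine-high excess was larger in endothelial than in fibroblast-marked barcodes numbered 76 of 12932 (0.588%), and 1007 (7.79%) had a smaller excess, with edgeR's interaction test. The median over all genes was -0.15 on the log2 scale, and -0.05 with the scaling of DESeq2, where 110 were larger and 796 smaller. The limits on other lineages bind the members and not the endothelial reference. With both lineages free of leukocyte and dendritic transcripts and the endothelial reference held to the members' limits, the counts were 23 and 139. The fibroblast-marked barcodes were not held to those limits. Leaving out control replicate 1, disease replicate 4 or disease replicate 5 gave 46 to 89 larger and 593 to 639 smaller.

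The monocyte chemokines Ccl2, Ccl7 and Ccl8 had a smaller excess in endothelial-marked barcodes. Ccl2 was at 1369, 1612 and 1231 CPM in chemokine-high fibroblast-marked barcodes and at 42.5, 29.1 and 18.1 CPM in members of the same libraries. Its excess was smaller in endothelial-marked barcodes by -5.23 on the log2 scale (SE 0.24, adjusted p = 1.6e-13 by edgeR), and by -2.23 in the form without leukocyte and dendritic transcripts. For Ccl7 these values were -5.85 and -2.21, and for Ccl8 -5.57 and -2.32. For the neutrophil chemokine Cxcl1 the first value was -1.56 and the second -0.51 (edgeR adjusted p = 0.29). Without leukocyte UMIs in either lineage and without fibroblast UMIs in the endothelial-marked barcodes, Ccl2 and Ccl7 were at -1.68 and -1.78 and did not pass in the 2 libraries this left (edgeR adjusted p = 0.74 and 0.71). The excess was larger in fibroblast-marked barcodes for 13 of 40 interferon gamma, 14 of 23 type I and 14 of 23 class I genes. These counts changed with the libraries and the test. They were 3, 4 and 2 without control replicate 1, 20, 11 of 22 and 14 without disease replicate 4, and 10, 3 and 10 without disease replicate 5. With DESeq2 they were 7 of 40, 6 of 22 and 6 of 23, and without leukocyte and dendritic transcripts 8 of 39, 8 of 22 and 10 of 23. In the form without leukocyte or fibroblast UMIs they were 0 of 38, 0 of 20 and 0 of 23 in 2 libraries and 5 of 37, 2 of 20 and 3 of 23 in 4. Ifit1 was at 298, 418 and 246 CPM in chemokine-high fibroblast-marked barcodes against 43.4, 108 and 27.6 CPM in the others, and its excess in endothelial-marked barcodes was smaller by -1.66 (SE 0.21, adjusted p = 3.1e-06 by edgeR). Isg15 differed by -1.09. Ido1 was at 0 to 0.410 CPM in chemokine-high fibroblast-marked barcodes and at 52.0, 314 and 230 CPM in members of these libraries, and Ubd at up to 19.7 and at 97.7, 440 and 520 CPM. Neither gene had an excess called larger in endothelial-marked barcodes. By edgeR 0 of the 40 interferon gamma genes tested, which include both, did. The water channel Aqp1 and the glycosyltransferase Galnt15 had a larger excess in endothelial-marked barcodes, by 1.98 and 2.14. In the form without leukocyte or fibroblast UMIs none of the 8 genes named for this comparison passed in the 2 libraries left, where Aqp1 was at 1.17, Galnt15 at 2.34 and Ccl8 at -2.99 (edgeR adjusted p = 0.71, 0.13 and 0.38). In the 4 libraries with at least 10 members 3 of the 8 passed, among them Galnt15 and Ccl8, and Aqp1 did not (edgeR adjusted p = 0.22).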

How the data were processed

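UMI counts per gene and barcode were deposited by the authors as 5 filtered matrices, which per the file headers come from Cell Ranger 3.1.0. The submitters' processing notes also name Seurat 3 and the builds mm10 and GRCh38, without a role for each. The counts were used as deposited, with 31053 genes. Raw counts were summed per library over members, reference and fibroblast-marked barcodes, and libraries with fewer than 20 members or chemokine-high fibroblast-marked barcodes were left out of the fit concerned. Sums were tested with edgeR 4.0.16 (TMM scaling, filterByExpr, quasi-likelihood F test) in R 4.3.3, with library as a term within libraries, and p-values were adjusted by the Benjamini-Hochberg method over all genes tested, the genes of the rule left out. The code was tested on simulated counts. DESeq2 1.42.0 and a reference held to the members' limits were among the alternatives. The exclusion of leukocyte and dendritic transcripts, and the stricter exclusion with at least 10 members per library, were chosen after seeing the data. No doublet caller was run. Genes named are those of the lists, plus, per fit, the 15 largest rises and 10 largest falls by log2 fold change among called genes with a mean log2 CPM of at least 5 and the same direction in every library. For the genotype and interaction fits the last condition was instead that libraries of the genotypes did not overlap, so examples named there were picked for that separation. Members and lists were chosen with earlier results of these data known, so they are no independent evidence. Precision is set by UMI sums of 283562 to 1203554 over the members of a library.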

Additional observations from a re-analysis of the deposited data

Results flagged for a closer look

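For 7 named genes the difference between members and reference differed between the genotypes, by edgeR's interaction test in the 5 libraries. Each value is the log2 fold change of members over reference in disease minus that in control. Ido1 UMIs came from 112 members in disease replicate 4 and 78 in disease replicate 5. In disease replicate 3, 1 member held 12 of 14. Ido1 gave 1.69 (adjusted p = 0.033 by edgeR). Without control replicate 2 it did not pass, at 1.31. The hemoglobin genes Hba-a1 and Hba-a2, which mark red blood cells, gave 4.28 and 4.44, but -3.17 and -6.38 against the depth-matched reference. In disease replicate 5, 361 of 363 Hba-a1 UMIs came from 1 member, and without control replicate 2 neither gene passed. The neutrophil chemokine Cxcl2 gave -2.37, with 151 of 345 UMIs from 1 member in control replicate 1, and -1.78 without that library (adjusted p = 0.11 by edgeR). The metallothionein Mt2 gave -2.55, the matrix gene Postn -3.08 and Abcc9, a potassium channel subunit of mural cells, -2.06. Without control replicate 1 Mt2, Postn and Abcc9 did not pass, and without control replicate 2 Postn did not. Against the reference with the members' limits Cxcl2 alone of the 7 passed, at -1.80 (adjusted p = 0.044 by edgeR). Among the 502 members without leukocyte and dendritic transcripts none of the 7 did, and with the DESeq2 test 1 of the 7 did.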

How the results depend on the processing

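No paired analysis was possible because the groups share no replicate number; the library term pairs members with the reference of their own library. The share difference of 2.70 points ranged from 0.16 to 4.75 with single libraries left out and from 2.32 to 4.10 under the other settings, where no permutation p could be under 0.1. Of 77 named genes called between members and reference, 77 kept their call with DESeq2 size factors, 70 with the DESeq2 test and 24 with no library block, and 60 of 71 did against the depth-matched reference. At a threshold of 10 UMIs 64 of 77 did, without leukocyte or fibroblast UMIs 35 of 64 (2 reversed), and in that form with at least 10 members 42 of 59 (2 reversed). Precision is limited by the 47 and 57 members of the smallest libraries. The cause of the changes below was not tested; the exclusions also leave fewer barcodes and genes.

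Genes higher and lower in members (549 and 953) numbered 63 and 365 with no library block, 350 and 619 at a threshold of 10 UMIs, and 321 and 198 without leukocyte or dendritic UMIs. They were 109 and 16 without leukocyte or fibroblast UMIs, and 139 and 47 in that form with at least 10 members per library. Lower genes were 331 against the reference with the members' limits and 505 against a depth-matched one. Leaving out a library gave 390 to 551 and 785 to 1013.

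Between genotypes (7 and 451), 124 and 819 genes were higher and lower when every gene with a count was tested, 63 and 180 without leukocyte or fibroblast UMIs, 4 and 115 in that form with at least 10 members, and 3 and 115 at a threshold of 10, a fit of control replicate 1 and disease replicates 4 and 5. The control arm has 1 library in that fit, in the one without leukocyte or fibroblast UMIs (control replicate 2), in the interaction under both settings, and wherever a control is left out. Without leukocyte or dendritic UMIs 13 were higher. Leaving out a library gave 0 to 35 and 91 to 565.

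For the interaction (5 and 9) the counts were 30 and 43 with every gene, 8 and 70 at a threshold of 10, and 0 and 1 with DESeq2, against the reference with the members' limits, against the depth-matched one and without leukocyte or dendritic UMIs. Without leukocyte or fibroblast UMIs they were 0 and 0, with at least 10 members 0 were lower, and with DESeq2 size factors 14 were lower. Leaving out a library gave 0 to 27 and 4 to 37.

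For the comparison with fibroblast-marked barcodes (76 and 1007) they were 41 and 546 with DESeq2, 123 and 664 with at least 10 members, 2 and 3 without leukocyte or fibroblast UMIs, 4 and 34 in that form with at least 10 members, and 23 and 139 without leukocyte or dendritic UMIs. Larger excesses were 201 with every gene and 216 at a mitochondrial limit of 25%, and smaller ones 491 at a threshold of 10. Leaving out a library gave 46 to 89 and 593 to 639.

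Signs of named genes turned as follows. H2-Aa (-0.06) was 1.85 against the reference with the members' limits, 0.28 with no library block, 2.08 and 1.61 in the stricter forms, 0.75 at a threshold of 10, 1.40 without leukocyte or dendritic UMIs, 0.23 without control replicate 2 and 0.21 without disease replicate 3, and over the libraries left out ranged from -0.51 to 0.23. Cd74 (-0.24) was 1.81, 0.31, 2.51, 1.90, 0.91, 1.51, 0.22 and 0.015 in the same order, with a range of -0.71 to 0.22. H2-Ab1 (0.12) was -0.22 with DESeq2, -0.31 against the depth-matched reference, -0.12 without control replicate 1 and -0.30 without disease replicate 5 (range -0.30 to 0.36). Cxcl1 (-0.09) was 0.92 against the reference with the members' limits, 0.054 with no library block, 0.72 and 1.20 in the stricter forms, 0.91 without leukocyte or dendritic UMIs, 0.19 without disease replicate 4 and 0.02 without disease replicate 5 (range -0.38 to 0.19). Cxcl2 (-1.27) was 1.18 against the reference with the members' limits, 1.28 and 1.25 in the stricter forms and 0.71 without leukocyte or dendritic UMIs, and its interaction (-2.37) was 0.47 and 0.31 in the stricter forms. Ifngr1 (0.08) was -0.019 at a threshold of 10 and -0.021 to 0.14 with libraries left out, and Gpihbp1 (0.32) was -0.11 and -0.060 in the stricter forms. Against the depth-matched reference the interactions of Hba-a1 and Hba-a2 were -3.17 and -6.38.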
